A study of Macaca fascicularis with 3 samples.

Results

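ESRRG and PPARA are 2 nuclear receptors, transcription factors of the family that also holds the steroid and thyroid hormone receptors. They were taken by name from the gene tables of 2 libraries of muscle nuclei from the cynomolgus macaque (Macaca fascicularis), where they are 2 of 38550 listed features. Both were picked because earlier results of these data had shown them to differ between the muscles and between nuclei of different myosin chains, so their levels by muscle and by chain are given as a description, with no test. The libraries are 1 of nuclei from extraocular muscle (EOM, the muscles that turn the eye), 1 of nuclei from quadriceps femoris muscle (QFM, a limb muscle of the thigh) and 1 of whole EOM cells. The labels give no treatment, genotype, age or number of animals, and both muscles are unmanipulated as far as they say. With 1 library in each group there is no spread between replicates, and muscle, animal and library cannot be told apart.

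ESRRG encodes estrogen-related receptor gamma, an orphan receptor that binds DNA without a known natural hormone and, in mouse muscle, drives genes of mitochondrial respiration, vessel growth and slow oxidative fibres. PPARA encodes peroxisome proliferator-activated receptor alpha, which binds fatty acids, pairs with a retinoid X receptor (RXR) and switches on genes of fatty acid uptake and oxidation. Both work with the coactivator PGC-1 alpha, made by PPARGC1A, which is abundant in oxidative muscle.

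After filtering, 13976 EOM nuclei, 10525 QFM nuclei and 7111 EOM cells were kept, with a median of 2811, 4508 and 1142 unique molecular identifiers (UMIs, 1 per captured RNA molecule). The EOM and QFM nuclei libraries shared 51 barcodes. Clusters named as myofibre-like from marker genes held 8052 EOM and 7423 QFM nuclei, called myonuclei here. The tissue labels were checked on MYH13, the extraocular fast myosin, which stood at 10227 CPM in EOM myonuclei, against 5.86 CPM in those of QFM. CPM are UMIs of a gene, summed over a class of nuclei, per 1000000 UMIs of that class. MYH15, a slow-tonic type of chain, stood at 3576 CPM in EOM, against 0.82 CPM in QFM, and MYH7, the slow limb and cardiac chain, at 298 CPM in EOM, against 1874 CPM in QFM. All intervals are 95% intervals, exact Poisson for levels, Clopper-Pearson for shares and conditional exact binomial for log2 ratios, and they cover counting error only. The levels of ESRRG and PPARA are not set against each other, because nothing here scales them to length.

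Both receptors stood higher in the myonuclei of EOM than in those of QFM. ESRRG reached 1125 CPM (interval 1114 to 1137, 39797 UMIs) in EOM myonuclei, against 110 CPM (107 to 114, 4691 UMIs) in QFM myonuclei. That is 10.2-fold, a log2 ratio of 3.35 (3.31 to 3.39). PPARA reached 361 CPM (355 to 367, 12761 UMIs) in EOM myonuclei, against 104 CPM (101 to 107, 4412 UMIs) in QFM myonuclei, which is 3.48-fold and a log2 ratio of 1.80 (1.75 to 1.85). The counting intervals of the muscles do not overlap for either receptor, but they hold no spread between animals or libraries. The median log2 ratio of the 19293 genes compared was 0.42, and relative to it ESRRG stood at 2.93 and PPARA at 1.38. Of those genes 33.4% were at least 2-fold higher in EOM and 8.92% at least 2-fold lower, and ESRRG ranked 1315 and PPARA 3866 from the top. The contrast served to choose both genes, so nothing is read from these intervals or ranks.

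The difference was also seen in the share of myonuclei with a UMI, a measure that depends on the level and on depth. At least 1 ESRRG UMI was seen in 76.1% of EOM myonuclei (75.2 to 77.0) and in 27.2% of QFM myonuclei (26.2 to 28.2). PPARA was seen in 60.2% of EOM myonuclei (59.1 to 61.3) and 34.7% of QFM myonuclei (33.6 to 35.8). EOM myonuclei had fewer UMIs, with a median of 3596 against 5105 in QFM. With every nucleus thinned to 1000 UMIs, which left out 865 EOM and 60 QFM myonuclei, ESRRG was seen in 53.2% of EOM and 8.41% of QFM myonuclei, and PPARA in 29.1% and 9.18%. Endothelial-like nuclei may hold RNA from elsewhere as well as their own. The thinned ESRRG shares there were 10.02% in EOM and 0.101% in QFM. Unthinned they were 22.3% and 0.899%, at median depths of 2625 and 3660 UMIs. The thinned PPARA shares there were 9.86% and 4.55%, with 23.1% and 14.9% unthinned, so the PPARA share in QFM myonuclei stood closer to its endothelial share than the ESRRG share did. The PPARA level of endothelial-like nuclei was 29.0% of the myonuclear level in EOM and 50.2% in QFM. For the myofibre gene NEB these percentages were 11.6% and 6.45%. How much of the PPARA there came from elsewhere was not tested.

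Of 17 marker lists of other classes, 12 summed to a higher level in EOM than in QFM myonuclei and 5 to a lower one. The widest gap was that of the 8 Schwann cell or glial markers, at 1536 CPM in EOM, against 16.8 CPM in QFM myonuclei. The same markers summed to less in EOM endothelial-like (215 CPM) and fibroblast-like nuclei (971 CPM). Which of the 8 carry the sum is not given here, so it is not read as glial RNA. The 9 endothelial markers with a symbol summed to 638 CPM in EOM, against 97.5 CPM in QFM myonuclei, and the 11 fibroblast markers to 760 CPM, against 193 CPM. The 5 satellite cell markers summed to 114 CPM in EOM, against 10.4 CPM in QFM myonuclei, where satellite cell-like nuclei themselves held 2238 CPM in EOM, against 3199 CPM in QFM. Neuron markers summed to 110 CPM in EOM, against 10.4 CPM in QFM. None of the markers of these 5 lists was at 0 in either set of myonuclei. Mural markers were lower in EOM myonuclei, at 401 CPM against 644 CPM in QFM, as were adipocyte markers, at 90.5 CPM against 251 CPM, and perineurial markers, at 131 CPM against 153 CPM. The part of these lists in the receptor levels was not tested. Both receptors were lower in EOM endothelial-like, fibroblast-like and satellite cell-like nuclei than in EOM myonuclei. The EOM myonuclei include a cluster of 1750 nuclei with a median of 1298 UMIs, where ESRRG stood at 816 CPM and PPARA at 263 CPM. It scored 0.88 for myofibre markers, and its leading genes include KRT16 and PPARG. At clustering resolution 2 a low-depth cluster of 1105 nuclei with many of the same leading genes was named endothelial-like. The class of such nuclei thus depends on the resolution. Without the cluster of 1750 nuclei the EOM over QFM log2 ratios were 3.39 for ESRRG and 1.84 for PPARA, beside 32.2% of 19055 genes at least 2-fold higher and 9.30% at least 2-fold lower.

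Myonuclei were next grouped by the chain with most UMIs among MYH3, MYH7, MYH13 and MYH15, where these chains had at least 10 UMIs together. In EOM, 1541 nuclei were led by MYH15, 171 by MYH7, 4412 by MYH13 and 935 by MYH3, with 237 ties. In QFM, 2709 were led by MYH7 and 4344 by MYH3, with 5 ties and 0 led by MYH13 or MYH15. The adult fast chains MYH1 and MYH2 were not analysed here, so a leader is the highest of these 4 chains and not of all chains. MYH3, known as the embryonic chain, reached 5982 CPM in EOM myonuclei and 5518 CPM in those of QFM, and whether UMIs of adult fast chains were counted under its name cannot be settled from the files. MYH3-led is therefore the name of a group here and says nothing of an embryonic chain. In QFM all 9 measured fast sarcomere genes, such as TNNT3 and ATP2A1, were at least 2-fold lower in MYH7-led than in MYH3-led nuclei, and all 8 measured slow ones, MYH7 itself among them, at least 2-fold higher. Of all genes compared in that contrast, 6.23% were at least 2-fold higher and 10.7% at least 2-fold lower.

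In EOM, ESRRG was highest in nuclei led by MYH15. MYH15-led nuclei also held more of the slow sarcomere genes than MYH13-led nuclei, with 6 of 8 at least 2-fold higher and a median log2 ratio of 1.56. ESRRG stood at 1619 CPM (1589 to 1649) in MYH15-led nuclei, 675 CPM (615 to 739) in MYH7-led nuclei, 1026 CPM (1013 to 1039) in MYH13-led nuclei and 992 CPM (960 to 1026) in MYH3-led nuclei. The MYH13-led and MYH3-led levels do not differ beyond their counting intervals, and MYH7-led nuclei were the lowest of the 4 groups. The log2 ratio of MYH15-led over MYH13-led nuclei was 0.66 (0.63 to 0.69), or 1.58-fold, in a contrast where 3.17% of 17234 genes were at least 2-fold higher and 8.05% at least 2-fold lower. The log2 ratio of MYH7-led over MYH13-led nuclei was −0.60 (−0.74 to −0.47), where 17.0% of 16561 genes were at least 2-fold higher and 10.7% at least 2-fold lower. ESRRG passed 2-fold in neither contrast. When a leader had to hold at least 60% of the chain UMIs, the MYH7-led over MYH13-led value was −0.37. Markers of other classes also differed between these groups. Neuron markers summed to 376 CPM in MYH7-led, against 98.3 CPM in MYH13-led nuclei, and lymphatic endothelial markers to 372 CPM, against 37.7 CPM, with 3 of the 6 lymphatic markers at 0 in MYH7-led nuclei. Schwann cell or glial markers summed to 2379 CPM in MYH15-led, 239 CPM in MYH7-led and 1389 CPM in MYH13-led nuclei, and mast cell markers to 97.6, 56.3 and 24.9 CPM. Their part in the receptor levels was not tested.

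PPARA was nearly level across the EOM chains apart from MYH7. It stood at 370 CPM (356 to 385) in MYH15-led nuclei, 221 CPM (187 to 259) in MYH7-led nuclei, 375 CPM (367 to 383) in MYH13-led nuclei and 325 CPM (306 to 344) in MYH3-led nuclei. The MYH15-led over MYH13-led log2 ratio was −0.02 (−0.08 to 0.05), an interval that includes 0. The MYH7-led over MYH13-led ratio was −0.76 (−1.004 to −0.53). With the 60% rule for a leader the first of these ratios was −0.22.

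In QFM, MYH7-led nuclei held more of both receptors than MYH3-led nuclei. ESRRG stood at 210 CPM (203 to 217) in MYH7-led nuclei and 33.4 CPM (31.1 to 35.8) in MYH3-led nuclei, which is 6.28-fold and a log2 ratio of 2.65 (2.54 to 2.76). PPARA stood at 134 CPM (129 to 140) in MYH7-led nuclei and 79.7 CPM (76.2 to 83.4) in MYH3-led nuclei, a log2 ratio of 0.75 (0.67 to 0.84). ESRRG had the larger ratio of the receptors. The same MYH7-led over MYH3-led contrast in EOM gave a log2 ratio of −0.56 (−0.70 to −0.42) for ESRRG and −0.56 (−0.81 to −0.31) for PPARA. For this pair of chains the muscles thus gave opposite signs for each receptor, and this difference was not tested. The contrast is not of equal size in the muscles. Slow sarcomere genes had a median log2 ratio of 3.96 in QFM and 1.54 in EOM. For EOM MYH7-led over MYH13-led nuclei their median was 2.94. The EOM sign of ESRRG belongs to the grouping by leading chain. It was not the same for the slow unsupervised clusters against the lowest cluster, given below. With the 60% rule for a leader the EOM value of ESRRG was −0.29. Within EOM, MYH15-led nuclei held more ESRRG than MYH13-led and MYH3-led ones, and MYH7-led nuclei less.

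The muscles differed less for both receptors among MYH7-led than among MYH3-led nuclei. In MYH7-led nuclei the EOM over QFM log2 ratio of ESRRG was 1.69 (1.54 to 1.83), or 3.22-fold, and that of PPARA 0.72 (0.47 to 0.95), or 1.64-fold. Relative to the median of all genes in that contrast, 0.36, these are 1.32 and 0.35, and with median ratio scaling they were 1.08 and 0.11. Among MYH3-led nuclei the ratio was 4.89 (4.78 to 5.01) for ESRRG and 2.03 (1.92 to 2.13) for PPARA. The lowest ESRRG level of the EOM groups, 675 CPM in MYH7-led nuclei, was still above the highest of QFM, 210 CPM in MYH7-led nuclei.

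**Figure D1:**
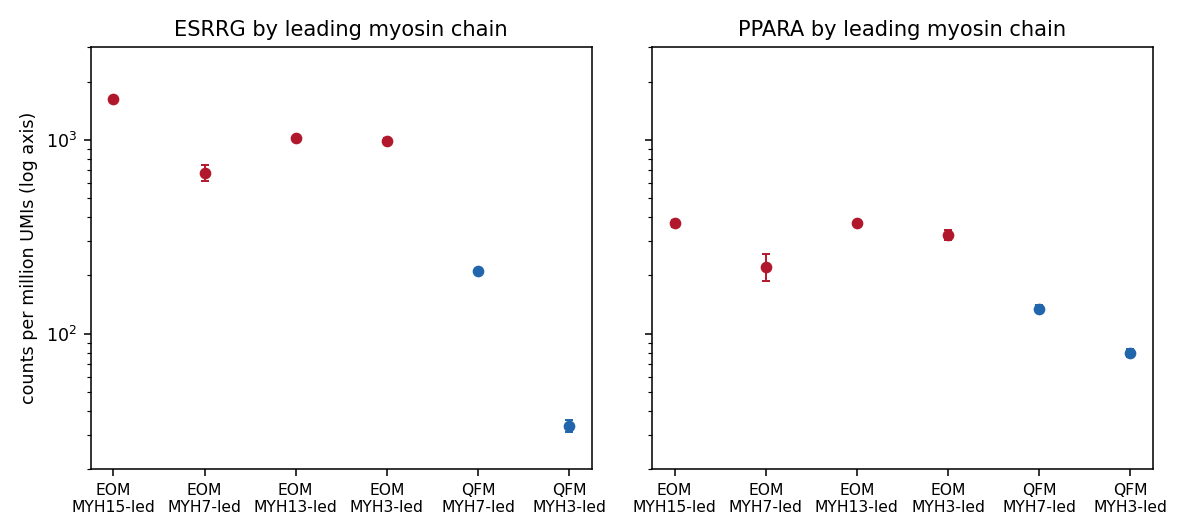
Levels of ESRRG (left) and PPARA (right) in CPM, on a log axis, in myonuclei grouped by leading myosin chain, with EOM in red and QFM in blue and bars for the exact Poisson interval. MYH15-led EOM nuclei are highest for ESRRG at 1619 CPM, and MYH7-led nuclei are lowest within EOM but higher than MYH3-led nuclei within QFM.

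Nuclei that missed the threshold of 10 chain UMIs had lower ESRRG in EOM. The 756 EOM myonuclei under it, with a median depth of 756.5 UMIs, held ESRRG at 556 CPM and PPARA at 193 CPM. The 365 QFM myonuclei under it held ESRRG at 137 CPM and PPARA at 115 CPM, which lie between the levels of MYH7-led and MYH3-led nuclei.

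Graded by the share of a chain, ESRRG followed MYH15 in EOM up to a point. From the lowest to the highest bin of MYH15 share it stood at 821 CPM (under 10%), 1035 CPM, 1504 CPM, 1738 CPM (40 to 60%), 1365 CPM and 1600 CPM (80 to 100%, 26 nuclei). The level was highest at 40 to 60% and lower in the bin above it. PPARA ranged from 188 to 395 CPM over the same bins and showed no steady trend. In QFM, ESRRG stood at 28.7 CPM in 4195 nuclei with under 10% MYH7 and 211 CPM in 2622 nuclei with over 80%. The 4 bins between held 47 to 75 nuclei each, with ESRRG from 75.5 to 199 CPM.

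**Figure D2:**
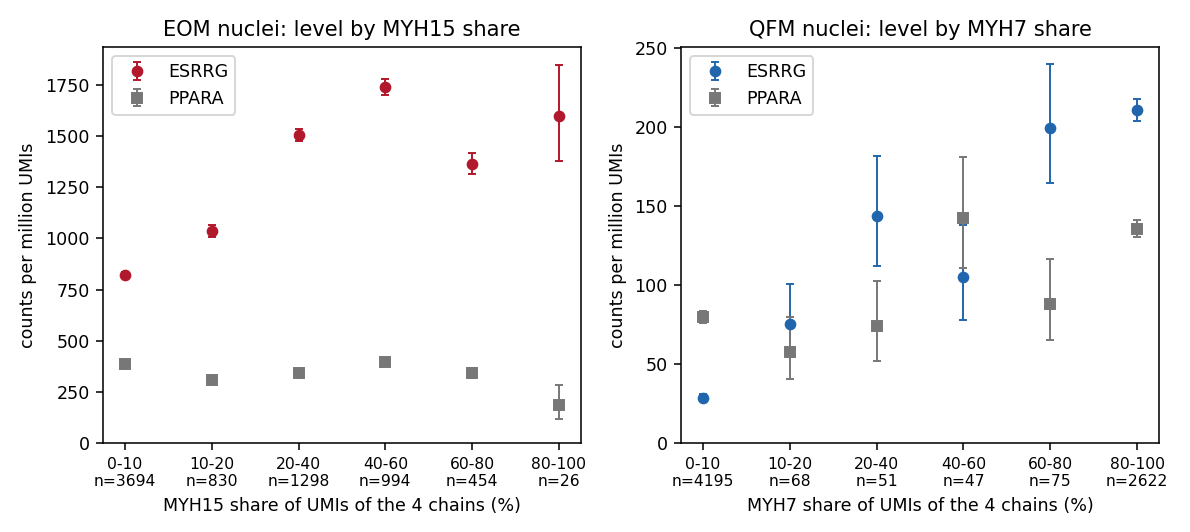
Levels of ESRRG (circles) and PPARA (grey squares) in CPM against the share of the 4 chains' UMIs that is MYH15 in EOM myonuclei (left) or MYH7 in QFM myonuclei (right), with exact Poisson intervals and the number of nuclei under each bin. ESRRG is higher from 20% MYH15 upwards in EOM and highest above 80% MYH7 in QFM, while PPARA in EOM has no steady trend.

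MYH15-led nuclei were not uniform. The 870 of them with 0 MYH7 UMIs held ESRRG at 1815 CPM (1772 to 1859), the 326 with 1 or 2 at 1637 CPM and the 345 with 3 or more at 1134 CPM (1082 to 1187). PPARA stood at 425, 387 and 222 CPM in these groups. Nuclei with 0 over those with 3 or more gave log2 ratios of 0.68 (0.60 to 0.75) for ESRRG and 0.94 (0.77 to 1.11) for PPARA. Within MYH15-led nuclei, more MYH7 thus went with less of both receptors.

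Unsupervised clusters gave the widest spread within EOM. ESRRG was highest, at 2002 CPM (1974 to 2030), in a cluster of 2084 myonuclei whose leading genes include MYH15 and NRXN3, and lowest, at 577 CPM (563 to 591), in a cluster of 2420 led by genes such as the fast myosin-binding protein MYBPC2. The clusters with slow fibre markers held 1128 CPM (603 nuclei, MYH6 among the leading genes) and 640 CPM (478 nuclei). PPARA ordered these clusters differently, with 452 CPM in the MYH15 cluster, 399 CPM in the MYBPC2 cluster, and 196 and 220 CPM in the slow ones. ESRRG thus separated the 2 large EOM clusters, and PPARA separated the slow clusters from both of them. Both slow clusters held more ESRRG than the MYBPC2 cluster and less than the MYH15 cluster. Whether slow EOM nuclei held more or less ESRRG than fast ones thus depends on the grouping. Neither gene was used to make the clusters.

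In both muscles a small cluster scored highest for markers of the neuromuscular junction, such as CHRNE and MUSK. ESRRG stood at 1663 CPM (1581 to 1748) in the EOM cluster of 258 nuclei and at 319 CPM (285 to 355) in the QFM cluster of 140 nuclei, which also scored for the myotendinous junction. Against all myonuclei of the same muscle these are log2 ratios of 0.56 (0.49 to 0.64) in EOM and 1.53 (1.36 to 1.69) in QFM. PPARA went the other way in both, with 298 CPM in the EOM cluster and 60.5 CPM in the QFM one, and log2 ratios of −0.28 (−0.46 to −0.11) and −0.78 (−1.16 to −0.42).

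The level in non-muscle nuclei was set beside that of genes of the myofibre, whose UMIs also appear in other classes. In EOM, ESRRG stood at 97.3 CPM in endothelial-like, 131 CPM in fibroblast-like, 108 CPM in mural-like and 126 CPM in macrophage-like nuclei. As a percentage of the myonuclear level these are 8.65%, 11.6%, 9.55% and 11.2%. NEB, which encodes the myofibre protein nebulin, was at 11.6%, 11.6%, 12.4% and 12.1% of its myonuclear level in the same classes. The 4 myosin chains gave 10.7 to 22.8%, 11.1 to 21.3%, 10.3 to 17.5% and 12.1 to 18.97%, with MYH7 the highest in each class. The ESRRG percentages were thus within or below the span of these 5 myofibre genes. A set of 767 low-depth neuron-like barcodes held ESRRG at 40.3% and NEB at 45.5%, and 145 Schwann-like nuclei at 27.8% and 29.0%. In 56 mast cell-like EOM nuclei, 45 of 62 ESRRG UMIs came from 1 nucleus.

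In QFM the same classes were lower still. ESRRG stood at 2.96 CPM (1.53 to 5.18) in endothelial-like nuclei, 6.15 CPM in fibroblast-like, 14.0 CPM in mural-like and 12.5 CPM in macrophage-like nuclei. These are 2.68%, 5.57%, 12.7% and 11.3% of the myonuclear level, against 6.45%, 9.61%, 14.3% and 14.9% for NEB. The intervals of the ESRRG percentages were 1.39 to 4.69%, 3.57 to 8.30%, 6.77 to 21.8% and 5.83 to 19.7%. ESRRG was thus below NEB in endothelial-like and fibroblast-like nuclei, and could not be told apart from it in mural-like and macrophage-like nuclei, on 13 and 12 UMIs.

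Satellite cell-like nuclei, the stem cells of muscle, were the exception. ESRRG stood at 577 CPM (533 to 625) in 551 EOM satellite cell-like nuclei and at 328 CPM (295 to 364) in 396 QFM ones, with UMIs in 54.1% and 40.2% of nuclei, or 39.1% and 20.4% when thinned. In QFM this was 2.97-fold above the myonuclei (log2 1.57, 1.41 to 1.73), and NEB stood at 7.54% of its myonuclear level there. In EOM it was 51.3% of the myonuclear level, with NEB at 20.2% and MYH13 at 17.2%. The EOM over QFM log2 ratio in satellite cell-like nuclei was 0.82 (0.63 to 1.009), in a contrast where 9.88% of 10159 genes were at least 2-fold higher and 11.9% at least 2-fold lower. PPARA stood at 193 CPM (168 to 221) and 104 CPM (85.4 to 125) in the satellite cell-like nuclei of EOM and QFM, a log2 ratio of 0.90 (0.56 to 1.24). Neither receptor passed 2-fold in that contrast as reported, but with called doublets kept the log2 ratios were 1.36 and 1.15, and thinned to 1000 UMIs that of ESRRG was 1.04.

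PPARA was spread over more classes than ESRRG. In EOM it stood at 105 CPM in endothelial-like, 120 CPM in fibroblast-like, 101 CPM in mural-like and 60.2 CPM in macrophage-like nuclei, or 29.0%, 33.3%, 27.9% and 16.7% of the myonuclear level. In QFM it stood at 52.1, 49.0, 37.8 and 28.0 CPM, or 50.2%, 47.2%, 36.4% and 27.0%. The EOM percentages lie above those of NEB and the 4 chains in the same class, except in macrophage-like nuclei, where MYH7 was at 18.97%. In QFM, NEB, MYH3 and MYH7 gave 6.45 to 12.4%, 9.61 to 16.9%, 13.8 to 22.6% and 14.9 to 23.4% in these classes. PPARA was above each span, but in macrophage-like nuclei its interval, 17.8 to 39.4% on 27 UMIs, includes the 23.4% of MYH7. The largest PPARA level in a QFM class of over 10 nuclei was 163 CPM (99.6 to 252) in 19 adipocyte-like nuclei, an estimate from 20 UMIs.

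Over all other named classes together, myonuclei held 6.19-fold more ESRRG in EOM (1125 CPM against 182 CPM) and 2.96-fold more in QFM (110 CPM against 37.3 CPM). Satellite cell-like nuclei gave 621 of the 2590 ESRRG UMIs of these other classes in EOM and 354 of 428 in QFM. The pooled QFM level thus comes mostly from satellite cell-like nuclei and does not stand for the remaining classes. PPARA stood at 361 CPM in EOM myonuclei, against 120 CPM in the other classes, and at 104 CPM in QFM myonuclei, against 54.7 CPM. These ratios depend on which barcodes are kept: with called doublets kept, the log2 ratio of myonuclei over the others was 1.36 in place of 2.63 for ESRRG in EOM, 0.93 in place of 1.57 in QFM, and 0.96 in place of 1.58 for PPARA in EOM. At clustering resolution 2 the EOM value of ESRRG was 2.02, and a low-depth cluster of 1105 nuclei was then named endothelial-like.

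**Figure D3:**
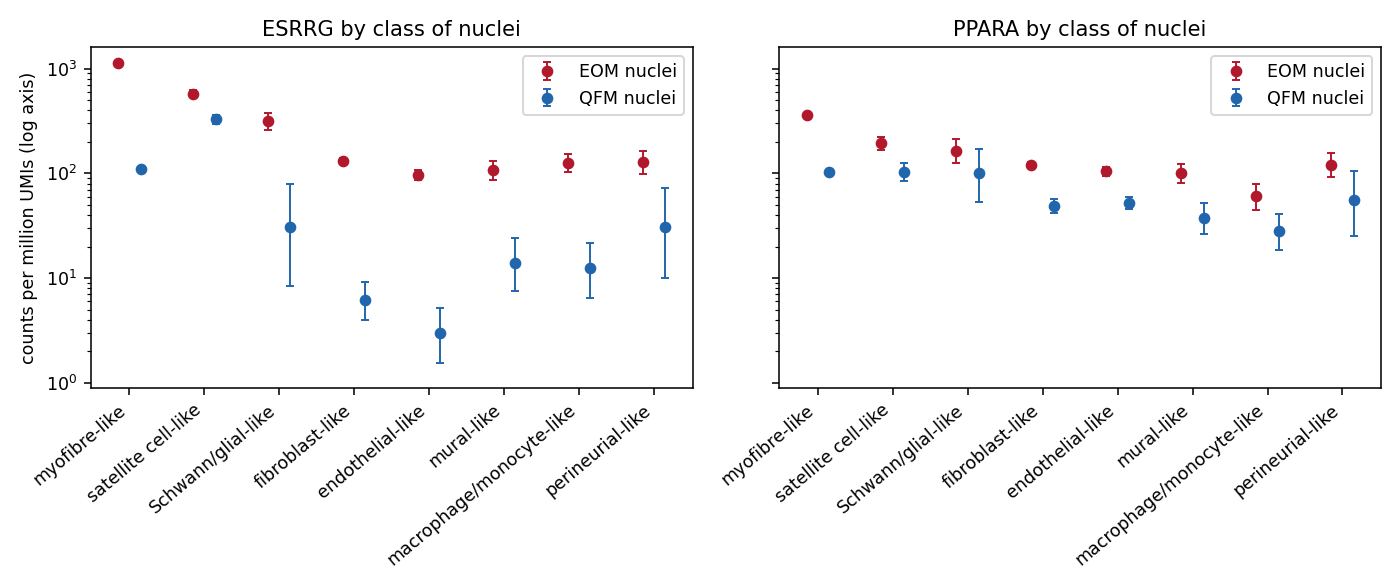
Levels of ESRRG (left) and PPARA (right) in CPM, on a log axis, in classes of nuclei named from marker genes, with EOM in red, QFM in blue and bars for the exact Poisson interval. Among QFM classes ESRRG is highest in satellite cell-like nuclei at 328 CPM, above the 110 CPM of myonuclei, while among EOM classes shown it is highest in myonuclei at 1125 CPM.

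The EOM cell library gave few UMIs of either gene. Of its 33368 features the 2 receptors held 69 UMIs (ESRRG, 7.14 CPM) and 50 UMIs (PPARA, 5.18 CPM) over 7111 cells. ESRRG was highest in an unnamed cluster of 32 cells led by genes such as MYF5 and CHODL, which mark satellite cells, at 280 CPM (134 to 515, 10 UMIs), and in 33 myofibre-like cells, at 232 CPM (120 to 404, 12 UMIs). It stood at 26.4 CPM in Schwann-like, 14.4 CPM in fibroblast-like, 1.63 CPM in endothelial-like and 0.35 CPM in mural-like cells. These 2 clusters were the highest for ESRRG in whole cells, on few UMIs. PPARA had 0 UMIs in the 33 myofibre-like cells, which allows a level of up to 57.9 CPM, and 10.9 CPM in fibroblast-like cells. Whole cells and nuclei were not set against each other as levels.

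The other receptors of these families did not all follow. Of the 7 other measured ERR and PPAR receptors and RXR partners, 2 were at least 2-fold higher in EOM than in QFM myonuclei, 0 were at least 2-fold lower and 5 lay between, beside 33.4% and 8.92% of all genes. The higher ones were ESRRA, the relative of ESRRG that is found in most tissues, at 80.8 CPM in EOM against 38.8 CPM in QFM (log2 1.06), and PPARG, the receptor of fat cells, at 19.9 CPM and 3.86 CPM (log2 2.37). PPARG stood at 107 CPM in EOM endothelial-like and 141 CPM in mural-like nuclei, and without the low-depth myofibre cluster it was at 11.6 CPM in EOM myonuclei (log2 1.59). ESRRB, at 222 CPM in EOM against 284 CPM in QFM, had a log2 ratio of −0.35, and PPARD, the third member of its family, −0.19. The RXR partners gave −0.85 (RXRA), 0.61 (RXRB) and −0.49 (RXRG). Relative to the median of all genes, 1 of the 7 was at least 2-fold higher and 1 lower, with ESRRA at 0.64. Of 31 measured other nuclear receptors, 12 (38.7%) were at least 2-fold higher and 5 (16.1%) at least 2-fold lower, not far from the 33.4% and 8.92% of all genes.

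Coregulators lay mostly within 2-fold. Of 16 measured, 0 were at least 2-fold higher in EOM and 2 (12.5%) at least 2-fold lower, beside 33.4% and 8.92% of all genes, with a median log2 ratio of −0.24. The lower ones were NRIP1, a corepressor of both families, at 4.81 CPM in EOM against 17.8 CPM in QFM (log2 −1.89), and NCOA3, a coactivator, at 70.0 CPM and 179 CPM (log2 −1.35). PPARGC1A reached 931 CPM in EOM against 594 CPM in QFM myonuclei (log2 0.65). TBL1X gave 0.91, NCOA2 0.76, PRKAA2 −0.71, MED1 0.37 and PRKAA1 −0.37. Relative to the median of all genes PPARGC1A stood at 0.23 and MED1 at −0.04, with 0 of the 16 at least 2-fold higher and 3 lower.

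Genes known from other work as targets of PPAR-alpha went both ways. Of 24 measured, 6 were at least 2-fold higher in EOM myonuclei, 6 at least 2-fold lower and 12 between, so 25% each way beside 33.4% of all genes higher and 8.92% lower, with a median log2 ratio of 0.07 beside 0.42 for all genes. Relative to the median of all genes, 4 were higher and 10 lower, and with median ratio scaling the list's median was −0.37. CPT1B, the muscle enzyme that admits fatty acids to mitochondria, reached 62.8 CPM in EOM against 29.5 CPM in QFM (log2 1.09). CPT1A, its liver form, stood at 16.7 CPM and 2.94 CPM (log2 2.50), below the 48.4 CPM of EOM endothelial-like and 44.7 CPM of EOM fibroblast-like nuclei. VNN1, a pantetheinase, stood at 11.7 CPM and 0.75 CPM (log2 3.96). Lower in EOM were LPL, which frees fatty acids from lipoproteins (30.7 CPM against 224 CPM, log2 −2.86), the mitochondrial carrier UCP3 (4.75 CPM against 24.5 CPM, log2 −2.36), the kinase PDK4 (1.44 CPM against 5.29 CPM, log2 −1.88), the lipid droplet coat PLIN2 (9.25 CPM against 33.1 CPM, log2 −1.84) and TXNIP (113 CPM against 269 CPM, log2 −1.24).

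Genes of energy metabolism known as targets of the ERR receptors lay mostly within 2-fold. Of 30 measured, 1 was at least 2-fold higher in EOM myonuclei and 4 at least 2-fold lower, or 3.33% and 13.3% beside 33.4% and 8.92% of all genes, with a median log2 ratio of −0.31. Relative to the median of all genes, 0 were higher and 9 lower. The higher one was IDH3B of the citric acid cycle (78.5 CPM against 35.1 CPM, log2 1.16). The lower ones were COX5A (log2 −1.19), COX7A1 (−1.18), SDHD (−1.11) and COX8A (−1.02), subunits of the respiratory chain. CYC1 gave −0.95, VEGFA −0.93 and SLC25A4, the muscle ADP/ATP carrier, −0.73. The list that carries the ERR name thus had a median below that of all genes, and its relation to the ESRRG level was not tested.

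**Figure D4:**
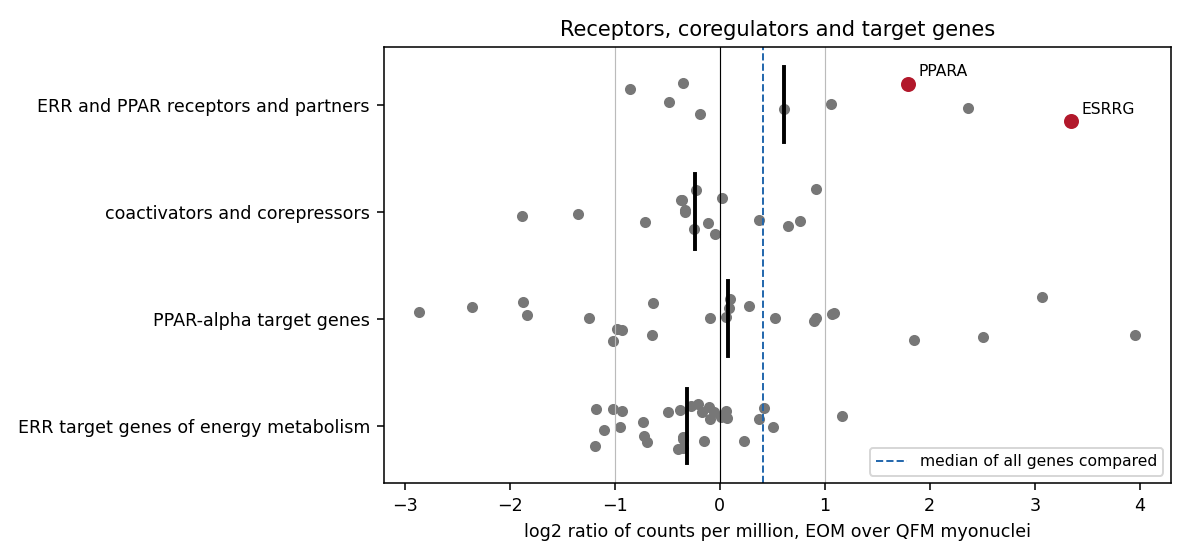
Log2 ratio of EOM over QFM myonuclei for each measured gene of 4 lists, with 1 point per gene, black bars for each list's median, a dashed line for the median of all genes compared at 0.42 and grey lines at 2-fold. ESRRG and PPARA, in red, were chosen with this contrast known, so nothing is read from their place. The ERR targets have their median at −0.31.

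Between MYH7-led and MYH3-led nuclei the medians of the target lists had opposite signs in the muscles, a difference that was not tested. In QFM, MYH7-led over MYH3-led nuclei gave a median log2 ratio of 0.61 over 30 ERR targets (4 at least 2-fold higher, 0 lower) and 0.75 over 21 PPAR-alpha targets (8 higher, 1 lower), beside −0.13 for all genes, of which 6.23% were at least 2-fold higher and 10.7% lower. The 9 adipocyte markers summed to 450 CPM in MYH7-led QFM nuclei, with 1 at 0, against 92.7 CPM in MYH3-led ones, with 2 at 0, and their part in the list medians was not tested. PPARGC1A stood at 1061 CPM in MYH7-led and 233 CPM in MYH3-led QFM nuclei (log2 2.19), ESRRA at 56.3 and 24.9 CPM (1.18), ESRRB at 487 and 127 CPM (1.94), and LPL at 452 and 46.3 CPM (3.29). RXRG went the other way, at 17.9 CPM in MYH7-led and 156 CPM in MYH3-led QFM nuclei (log2 −3.13).

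In EOM, MYH7-led over MYH3-led nuclei gave medians of −0.33 over 30 ERR targets (0 higher, 2 lower) and −0.26 over 18 PPAR-alpha targets (0 higher, 4 lower), beside −0.02 for all genes, of which 6.17% were at least 2-fold higher and 10.5% lower. PPARGC1A stood at 472 CPM in MYH7-led and 884 CPM in MYH3-led EOM nuclei (log2 −0.91), and ESRRA at 50.5 and 88.4 CPM (−0.81). ESRRB, at 290 and 243 CPM, had a ratio of 0.25. The slow sarcomere genes that mark the contrast had a median of 1.54 in EOM and 3.96 in QFM, and the EOM MYH7-led group holds 171 nuclei.

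The MYH7-led groups of both muscles carry the slow chain, but they differed in these genes and in the slow sarcomere list itself. Between these groups that list had a median EOM over QFM log2 ratio of −1.38. Among its 8 measured members, 4 stood below QFM by 2-fold or more, 1 stood above it by as much and 3 lay between. The groups are thus not matched slow nuclei. In EOM over QFM MYH7-led nuclei 15 of 30 ERR targets and 10 of 20 PPAR-alpha targets were at least 2-fold lower, with medians of −0.94 and −1.12 beside 0.36 for all genes, of which 10.3% were at least 2-fold lower and 29.2% higher. At least 2-fold higher were 0 ERR targets and 2 PPAR-alpha targets. PPARGC1A reached 472 CPM in EOM against 1061 CPM in QFM MYH7-led nuclei (log2 −1.17). ESRRG was 3.22-fold higher in EOM MYH7-led nuclei, and its relation to these genes was not tested.

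**Figure D5:**
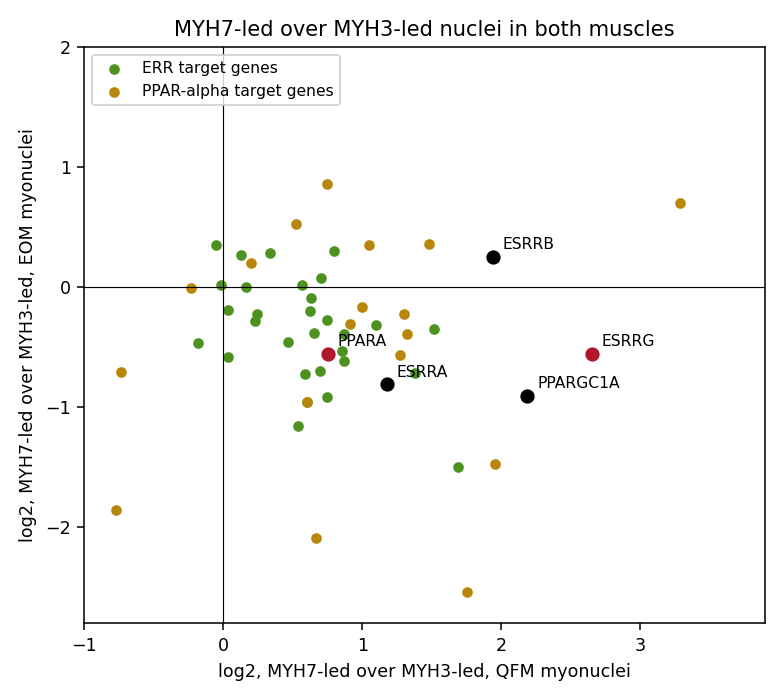
Log2 ratio of MYH7-led over MYH3-led myonuclei in QFM (horizontal) and EOM (vertical), with 1 point per gene for ERR targets (green), PPAR-alpha targets (ochre), ESRRG and PPARA (red) and PPARGC1A, ESRRA and ESRRB (black). ESRRG, at 2.65 in QFM and −0.56 in EOM, PPARA, PPARGC1A and ESRRA are positive in QFM and negative in EOM, and ESRRB is positive in both.

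Genes were ranked by how their UMIs varied with those of ESRRG from nucleus to nucleus. The measure was Pearson's r of depth-adjusted counts, over 8052 EOM myonuclei and 6938 genes, or 7423 QFM myonuclei and 6661 genes. All points of a muscle share 1 library and its free RNA, and the values are descriptions. In EOM the 10 genes most like ESRRG included PPP1R12B, a regulatory subunit of myosin phosphatase (r = 0.41), the neurexin NRXN3 (0.40), CADM1 (0.35), TBC1D32 (0.34), MYOM1 of the M-band (0.33), CDH18 (0.33), DMD, which encodes dystrophin (0.32), ESYT2 (0.31) and DAAM1 (0.31). MYH15 had r = 0.29. Within MYH15-led nuclei alone PPP1R12B had r = 0.22 and within MYH13-led nuclei 0.45.

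In QFM the 10 genes most like ESRRG included MYH7 (0.35), the mitochondrial calcium uniporter MCU (0.35), the slow calcium pump ATP2A2 (0.33), the potassium channel KCNMA1 (0.32), QKI (0.32), XPO4 (0.32), MYOZ2 (0.32), ABLIM1 (0.31) and RAD51B (0.30). Within MYH7-led nuclei alone MYH7 had r = −0.02, ATP2A2 −0.06 and XPO4 −0.00, while KCNMA1 had 0.17, MCU 0.15 and ABLIM1 0.17. Within MYH3-led nuclei alone MYH7 had 0.11, ATP2A2 0.11, XPO4 0.14, KCNMA1 0.30, MCU 0.15 and ABLIM1 0.16. All 6 were thus lower within either group than over both together. The 50 genes most like ESRRG in each muscle shared 7 (14% of each list), among them MCU, MYOM1 and MYOZ2, where 5973 genes were ranked in both muscles.

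For PPARA all values were low. The 10 highest in EOM included KCNMA1 (0.21), GRAMD1B (0.17), the splicing factor RBFOX1 (0.17), DMD (0.15), PPARGC1A (0.14), PDE4C (0.14), MYLK4 (0.14) and SLCO3A1 (0.13). In QFM they were MCU (0.18), QKI (0.18), ABHD18 (0.17), ZNF385B (0.16), PPP1R1C (0.16), BICC1 (0.16), LPL (0.15), ACTN2 (0.15), the thyroid hormone receptor THRB (0.15) and MYOM1 (0.15). ESRRG and PPARA had r = 0.10 with each other in EOM and 0.09 in QFM. Values this low in sparse counts are not read as relations.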

How the data were processed

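The members and all gene lists, markers and contrasts were chosen with earlier results of these data known. The tables were deposited by the authors as unnormalized UMI counts of each gene in each barcode. Cell Ranger 7.2.0 is named in the headers of the nuclei matrices, per the file headers, and Seurat 5.2.1 beside it, with no role, per the submitters' processing notes. The build, the annotation and whether introns were counted: not given in the sources used here. For QFM the title says nuclei, its files' names say single cells, and the title was followed. The nuclei libraries held 61618999 UMIs in 16491 barcodes (EOM) and 72590186 in 12503 (QFM), and the cell library 12248405 in 8979.

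Barcodes were kept with at least 200 genes, 500 UMIs and at most 10% mitochondrial UMIs in nuclei or 20% in cells. Scrublet with an expected rate of 6% called 15.2% (EOM nuclei), 15.1% (QFM nuclei) and 2.58% (cells) as doublets, which were removed. Each library was clustered without ESRRG and PPARA (2000 variable genes, 30 principal components, 15 neighbours, Leiden resolution 1). Clusters were named by the mean z-score of marker lists (at least 0.5, with 3 markers seen in 10% of barcodes). A list member was measured with at least 20 UMIs over both sums. The text names both receptors, up to 8 members of each of 4 lists with at least 5 CPM by absolute log2 ratio, and the 10 most correlated genes (analytic Pearson residuals, theta 100, genes seen in 5% of nuclei, without mitochondrially encoded and ribosomal protein genes). Some of these correlated genes are not reported here. Other genes named for slow and fast contrasts or clusters were chosen after their values were seen. A count of 0 was taken as 3 counts. With 1 library per group no test was made and no p-value given. The ratio and correlation code was tested on simulated data. Python 3.11.15, scanpy 1.11.5, scipy 1.17.1 and scikit-learn 1.9.0 were used.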

Additional observations from a re-analysis of the deposited data

Results flagged for a closer look

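MYH7-led over MYH3-led myonuclei gave log2 ratios of opposite sign in the muscles, −0.56 in EOM and 2.65 in QFM for ESRRG, −0.56 and 0.75 for PPARA, and −0.91 and 2.19 for the coactivator gene PPARGC1A. With 1 library per muscle the difference between the muscles was not tested. The slow sarcomere genes had a median of 1.54 in this contrast in EOM and 3.96 in QFM, so the compared groups are not alike. The EOM sign of ESRRG depends on the grouping and the reference. Both slow EOM clusters held more ESRRG than the cluster led by genes such as MYBPC2, which is the lowest of EOM.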

How the results depend on the processing

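Directions held under every alternative run, for the results that had one, except for the PPAR-alpha target median, 0.07 as reported and −0.37 with median ratio scaling, and for PPARA in MYH15-led over MYH13-led EOM nuclei, whose log2 ratio was −0.02 and whose interval includes 0. It was −0.22 with a leader of at least 60% of chain UMIs, 0.094 with 10 chain UMIs in any cluster and 0.053 with nuclei thinned to 1000 UMIs. For EOM over QFM myonuclei, ESRRG (3.35) and PPARA (1.80) gave 2.90 and 1.35 with median ratio scaling, 3.28 and 1.73 without the 50 most abundant genes in the totals, 3.29 and 1.74 with 10 chain UMIs in any cluster, and 3.17 and 1.64 over all kept nuclei. Thinned, ESRRG gave 3.46. ESRRG in MYH15-led over MYH13-led EOM nuclei (0.66) gave 0.59 with a 60% leader and 0.79 in any cluster. In MYH7-led over MYH3-led QFM nuclei with called doublets kept, ESRRG (2.65) gave 2.08 and PPARA (0.75) 0.64, and PPARA gave 0.56 thinned. Myonuclei over other named nuclei in EOM gave for ESRRG (2.63) 1.36 with doublets kept, 2.71 with a stricter barcode filter, 2.84 without low-depth clusters, 2.51 thinned and 2.02 at resolution 2, and for PPARA (1.58) 0.96 with doublets kept and 1.37 at resolution 2. In QFM with doublets kept, ESRRG (1.57) gave 0.93 and PPARA (0.93) 0.59, and ESRRG gave 1.32 thinned. The ERR target median (−0.31) was −0.76 with median ratio scaling. Alternatives chosen after the data were seen kept the EOM signs of MYH7-led over MYH3-led and over MYH13-led nuclei for both receptors, and both signs of PPARGC1A. ESRRG gave −0.29 (in place of −0.56) and −0.37 (in place of −0.60) with a 60% leader. For EOM over QFM, ESRRG in MYH7-led nuclei (1.69) gave 1.08 and PPARA (0.72) 0.11 with median ratio scaling. In MYH3-led nuclei ESRRG (4.89) gave 4.33 with doublets kept, 4.75 with a 60% leader and 4.39 with median ratio scaling, and PPARA (2.03) 1.52 with that scaling and 1.84 thinned. In satellite cell-like nuclei ESRRG (0.82) gave 1.36 with doublets kept and 1.04 thinned. Junction clusters, MYH15-led nuclei split by MYH7 and the target lists between chains had no alternative run. The cause of these shifts was not tested. The 10 genes most like a receptor depended on the measure: over pools of nuclei 4 (ESRRG) and 3 (PPARA) of 10 remained in EOM and 0 in QFM for either. Leaving low-depth clusters out of these lists was chosen after the data were seen. No paired analysis was possible because each group is 1 library.

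The 33 myofibre-like cells, 19 adipocyte-like nuclei and 171 MYH7-led EOM nuclei are few, and their values carry wide counting intervals. Animals, dissection and library preparation cannot be told apart from muscle, and free RNA differs between the libraries. MYH1 and MYH2 were not analysed here.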
